A study of Mus musculus with 20 samples.

Results

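Open chromatin of mural cells was examined in single nuclei of Nestin-EGFP+ cells from the adult dentate gyrus (DG). The nuclei were chosen by their accessibility at 4 mural genes, Kcnj8, Abcc9, Pdgfrb and Notch3. In the 12w and 24w scATAC-seq libraries, every barcode whose total in peaks lay between 10000 and 100000 counts was kept, and the share of its counts that fell in peaks over the body of the 4 genes or the 2000 bases upstream was calculated. The top 20% of each library are called mural-high nuclei here, 2006 of 10029 at 12w and 909 of 4545 at 24w, or 2915 of 14574 adult nuclei and of 21359 nuclei when P5 is included. They were set against the bottom 10% of the same library, 1003 and 454 mural-low nuclei. The choice used measured values, so accessibility at the 4 genes is given as a description.

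Mural cells are the pericytes and vascular smooth muscle cells that wrap the vessel wall. Pericytes sit within the basement membrane of capillaries and are recruited by PDGF-B from the endothelium acting on PDGFRB, while NOTCH3 maintains smooth muscle and pericytes, and KCNJ8 with ABCC9 forms a potassium channel that links metabolism to vessel tone. In the brain, mural cells share the vessel wall with endothelial cells and, around larger vessels, with fibroblasts.

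The mice carried the Nestin-EGFP transgene on a C57BL/6 background. The DG was dissected, and EGFP+ cells that did not take up 7-AAD, a dye that enters dead cells, were sorted by flow cytometry at postnatal day 5 (P5), 12 weeks and 24 weeks of age. Animals within an age had no other treatment in the labels. The sort rests on a transgene driven by regulatory sequence of Nestin, an intermediate filament gene of neural stem cells that vascular cells can also express, so the mural cells described are those with EGFP. There is 1 library per age and assay. Nuclei are not replicates, so no test was applied and no p-value is given, and the 95% intervals cover counting error only. Both ages serve as a side-by-side reading of the same comparison.

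The mural-high nuclei held 42917200 counts at 12w and 26116831 at 24w, and the mural-low nuclei 29504567 and 19671370. The median mural-high nucleus had fewer counts than the median mural-low nucleus, 19688 against 26490 at 12w and 26218 against 41414 at 24w. Of all adult nuclei, 61 barcodes occurred in both libraries, 5 of them mural-high in both. Doublets were not called. Levels are given as CPM, the pooled counts of a group scaled to a total of 1000000 in peaks, and differences as log2 of mural-high over mural-low with 1 count added to each group. A gene or region is called higher or lower where both ages differ by 2-fold or more and with the same sign. The value of a gene covers its body and the 2000 bases upstream, so reads from another gene whose window overlaps cannot be told apart. CPM of different genes are not compared, since it is not divided by length.

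The regions that differed most are shown by sequence. Each is the central 300 bases of a region with a peak in both libraries (GRCm38, + strand, 5′ to 3′). The regions of rank 1, 2 and 4 by ratio come first, near Palm2, Kl and Rgs6, which hold the nuclear receptor motif. That of rank 3, near Lonp2, holds none of the motifs and is not shown. A pair of further higher regions follows, near Otogl (rank 48) and Col8a1 (rank 71). They were chosen after their values were seen because they hold the MEF2 motif discussed below. The 10 highest regions do not hold MEF2 in these central bases. Capitals mark matches to any of the 7 motifs that were at least 1.3 times as frequent in higher as in lower regions, namely EBF, FOX, TEAD, MEF2, ETS, GATA and the nuclear receptor motif.
Palm2, chr4:57646852-57647151: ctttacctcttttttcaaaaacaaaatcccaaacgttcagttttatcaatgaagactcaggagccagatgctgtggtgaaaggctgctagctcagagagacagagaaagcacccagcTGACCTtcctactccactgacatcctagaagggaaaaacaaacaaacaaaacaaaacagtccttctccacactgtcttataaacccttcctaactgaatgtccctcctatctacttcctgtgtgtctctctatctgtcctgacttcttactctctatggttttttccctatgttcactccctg
Kl, chr5:150946729-150947028: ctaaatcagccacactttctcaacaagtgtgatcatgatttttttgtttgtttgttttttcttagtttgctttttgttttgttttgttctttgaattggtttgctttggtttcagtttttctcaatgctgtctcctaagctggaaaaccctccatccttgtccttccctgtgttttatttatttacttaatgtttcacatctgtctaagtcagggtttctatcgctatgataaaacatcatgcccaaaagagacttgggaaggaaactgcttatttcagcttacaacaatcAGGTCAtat
Rgs6, chr12:82646269-82646568: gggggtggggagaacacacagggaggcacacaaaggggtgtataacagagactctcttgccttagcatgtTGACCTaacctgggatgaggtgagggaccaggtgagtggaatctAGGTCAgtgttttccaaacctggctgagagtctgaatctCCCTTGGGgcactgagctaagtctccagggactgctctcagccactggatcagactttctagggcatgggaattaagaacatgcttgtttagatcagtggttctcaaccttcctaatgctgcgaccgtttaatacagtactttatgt
Otogl, chr10:107975580-107975879: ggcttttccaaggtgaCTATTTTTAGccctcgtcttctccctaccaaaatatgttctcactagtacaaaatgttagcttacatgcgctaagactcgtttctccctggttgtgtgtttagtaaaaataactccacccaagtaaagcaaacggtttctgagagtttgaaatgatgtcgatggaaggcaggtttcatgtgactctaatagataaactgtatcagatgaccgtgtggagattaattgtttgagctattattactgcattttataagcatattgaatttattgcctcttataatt
Col8a1, chr16:57690635-57690934: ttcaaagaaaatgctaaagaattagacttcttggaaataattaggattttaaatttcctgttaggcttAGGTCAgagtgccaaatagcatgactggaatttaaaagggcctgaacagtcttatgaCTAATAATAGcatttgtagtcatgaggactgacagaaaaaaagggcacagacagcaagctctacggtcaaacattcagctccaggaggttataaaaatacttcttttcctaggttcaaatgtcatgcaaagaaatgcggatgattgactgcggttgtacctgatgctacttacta
The Palm2, Kl and Rgs6 sequences hold the nuclear receptor motif, and that of Rgs6 also EBF. Of the 10 highest regions 5 hold the nuclear receptor motif in the central 300 bases, and 3, near Lonp2, Dach1 and Stradb, hold none of the 7 motifs. The Otogl sequence holds MEF2 and the Col8a1 sequence both MEF2 and the nuclear receptor motif.

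A region with 1 of the lowest ratios is shown in the same way, with capitals for the 7 motifs whose frequency was 1.3 times or more in the other direction, namely the NFI motif, TCF E-box, RFX, KLF and SP, CTCF, POU and homeobox motifs.
Hand2, chr8:57360935-57361234: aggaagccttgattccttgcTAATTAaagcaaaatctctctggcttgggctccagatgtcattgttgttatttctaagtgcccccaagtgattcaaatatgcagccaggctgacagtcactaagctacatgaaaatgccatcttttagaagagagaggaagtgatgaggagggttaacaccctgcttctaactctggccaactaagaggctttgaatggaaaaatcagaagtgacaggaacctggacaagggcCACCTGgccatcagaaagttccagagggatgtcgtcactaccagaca
The Hand2 sequence holds a homeobox and a TCF E-box motif. With the central 500 bases in place of 300, EBF was 1.18 times as frequent in higher as in lower regions, so that 6 of the first 7 motifs still passed 1.3 times, and the TCF E-box, with a ratio of 0.806, no longer passed in the other direction. A match to a motif is a description of the letters and does not show that a factor binds there.

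The region near Palm2 (chr4:57646535-57647468) lies in an intron shared by the Palm2 and Pakap models, which encode proteins of the plasma membrane and of kinase anchoring. It held 565 counts in mural-high nuclei at 12w and 287 at 24w, against 0 and 0 in mural-low nuclei. Counted against a floor of 3 counts over the mural-low group, it was 129-fold higher at 12w and 72.1-fold higher at 24w. These are not lower limits. The counting interval, with counts divided by 2 for the fragments, had a lower limit of 52.3-fold at 12w and 28.9-fold at 24w. No mural-low nucleus of either age had a count there.

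The region near Kl, which encodes the co-receptor klotho, lies 5729 bases upstream of its start site in intergenic sequence. It held 1098 counts at 12w and 786 at 24w, against 2 and 2 in mural-low nuclei, a ratio, taken here without the added count, of 377 at 12w (95% interval 67.5 to 14934) and 296 at 24w (52.8 to 11721). With only 2 counts in each mural-low group these ratios are known no better than the intervals. The region within Rgs6, a regulator of G protein signalling, held 361 and 220 counts against 1 and 0. The Otogl region lies 63595 bases upstream of that gene and held 1161 and 880 counts against 9 and 7, a log2 difference of 6.32 at 12w and 6.37 at 24w. The Col8a1 region lies in the body of Col8a1, a collagen gene of vessel walls, and held 429 and 244 counts against 3 and 1. All of these regions were chosen as higher at both ages, so that their direction is not a result.

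The other 7 of the 10 highest regions were nearest to Lonp2, Oxsr1, Adra1a, Rcl1, Tmem62, Dach1 and Stradb. That of Oxsr1 lies in Slc22a14 and held 1558 and 953 counts in mural-high against 8 and 2 in mural-low nuclei. That of Adra1a, the alpha-1A adrenergic receptor through which noradrenaline contracts vessels, lies inside the gene, 110324 bases from its start, and held 511 and 459 counts against 2 and 1. The 10 lowest regions lay mostly far from genes, with 8 of them outside the body of any coding gene. The one nearest to Anxa1 held 0 and 1 counts in mural-high against 442 and 318 in mural-low nuclei, and that near Hand2 held 1 and 0 against 274 and 210.

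The label was first checked on genes that the choice did not use. Of 14 mural markers outside the 4, 13 were higher in mural-high nuclei at both ages and 0 were lower, while of all 16448 genes compared 8.43% were higher and 21.3% lower. The median log2 difference of the 14 was 2.71 at 12w and 2.97 at 24w, against −0.12 and −0.24 over all genes. Higd1b, a pericyte marker of the hypoxia-inducible domain family (chr11:102835849-102838040), had 315 CPM at 12w and 351 at 24w in mural-high and 5.12 and 5.08 in mural-low nuclei, a log2 difference of 5.93 (5.62 to 6.29) and 6.10 (5.71 to 6.54). Both mural-high values lay far above both mural-low values.

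Rgs5, a regulator of G protein signalling that marks pericytes, had 355 and 396 CPM in mural-high against 25.7 and 26.5 in mural-low nuclei. Atp13a5, a transport ATPase found in brain pericytes, had 306 and 397 CPM against 21.4 and 28.9. Cspg4, which encodes the NG2 proteoglycan, had 506 and 532 CPM against 57.8 and 66.3. These 3 markers were higher by 3.00 to 3.90 on the log2 scale. The purinergic receptor gene P2ry14 and the ectopeptidase gene Enpep were higher by 3.45 and 3.30 at 12w and by 3.37 and 3.65 at 24w. The exception among the 14 was Ndufa4l2, a mitochondrial gene induced by hypoxia, with 164 and 187 CPM against 129 and 130, a log2 difference of 0.35 and 0.53. Its window overlaps that of Shmt2, a metabolic enzyme gene.

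**Figure D1:**
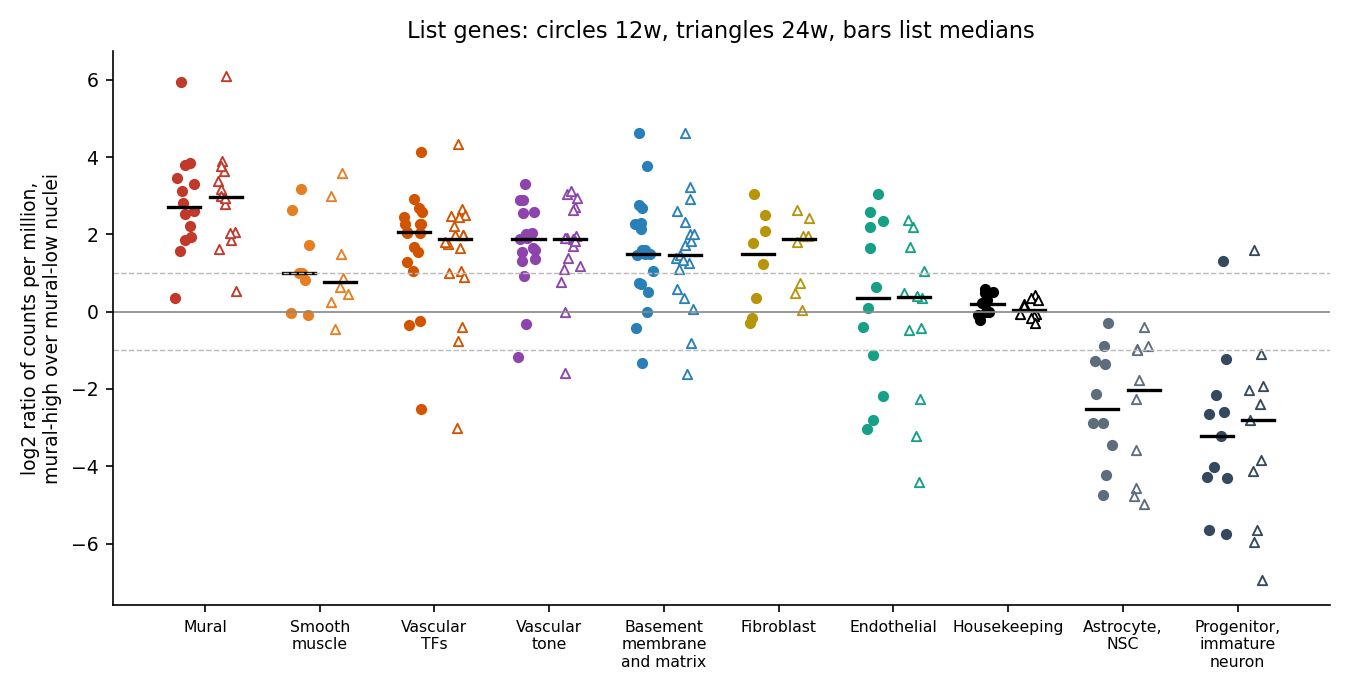
Log2 ratio of CPM in mural-high over mural-low nuclei (vertical axis) for each gene of 10 lists (horizontal axis), with filled circles for 12w, open triangles for 24w, short bars for list medians and dashed lines at 2-fold. The mural genes lie above the 2-fold line apart from Ndufa4l2, at 0.35 and 0.53, the endothelial genes lie on both sides, and the 10 housekeeping genes lie within 2-fold.

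The 4 genes of the rule had these levels by construction. Kcnj8 had 246 and 275 CPM in mural-high against 3.80 and 6.41 in mural-low nuclei, and Abcc9 had 413 and 454 against 4.95 and 12.9. Notch3 had 364 and 342 CPM against 16.8 and 39.5, and Pdgfrb 927 and 1049 against 22.1 and 52.4. When nuclei were chosen without a gene, that gene still differed, by a log2 of 3.78 at 12w and 4.20 at 24w for Kcnj8, 3.91 and 3.89 for Abcc9, 2.84 and 2.93 for Pdgfrb, and 2.28 and 2.02 for Notch3. Kcnj8 and Abcc9 are neighbours on chromosome 6, and with both left out Kcnj8 differed by 3.46 and 3.71 and Abcc9 by 3.65 and 3.47.

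The share at the 4 genes is continuous, and its cut falls among nuclei that are alike. The lowest share inside the mural-high group was 0.158674% at 12w and 0.180694% at 24w, and the highest share outside it 0.158648% and 0.180665%. Within 10% of the cut there were 571 nuclei inside and 734 outside at 12w, and 318 inside and 472 outside at 24w. The median share was 0.190% and 0.207% in mural-high, 0.00463% and 0.0108% in mural-low, and 0.0944% and 0.135% in all nuclei. Of mural-low nuclei, 455 at 12w and 92 at 24w had 0 counts at the 4 genes.

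Nuclei were then split into deciles by this share, numbered from 1 for the lowest. At 12w the summed level of the 14 mural markers was 561 CPM in decile 1, 622 in decile 3, 1205 in decile 4, 2249 in decile 5, 2874 in decile 6 and 3379 in decile 10. At 24w it stood at 589 CPM in decile 1, 1019 in decile 2, 2838 in decile 3 and 3763 in decile 10. Mural marker levels near those of the mural-high group were thus found from decile 6 up at 12w and from decile 3 at 24w. The choice takes the upper part of the nuclei with such levels, and its cut does not set it apart from the others among them.

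**Figure D2:**
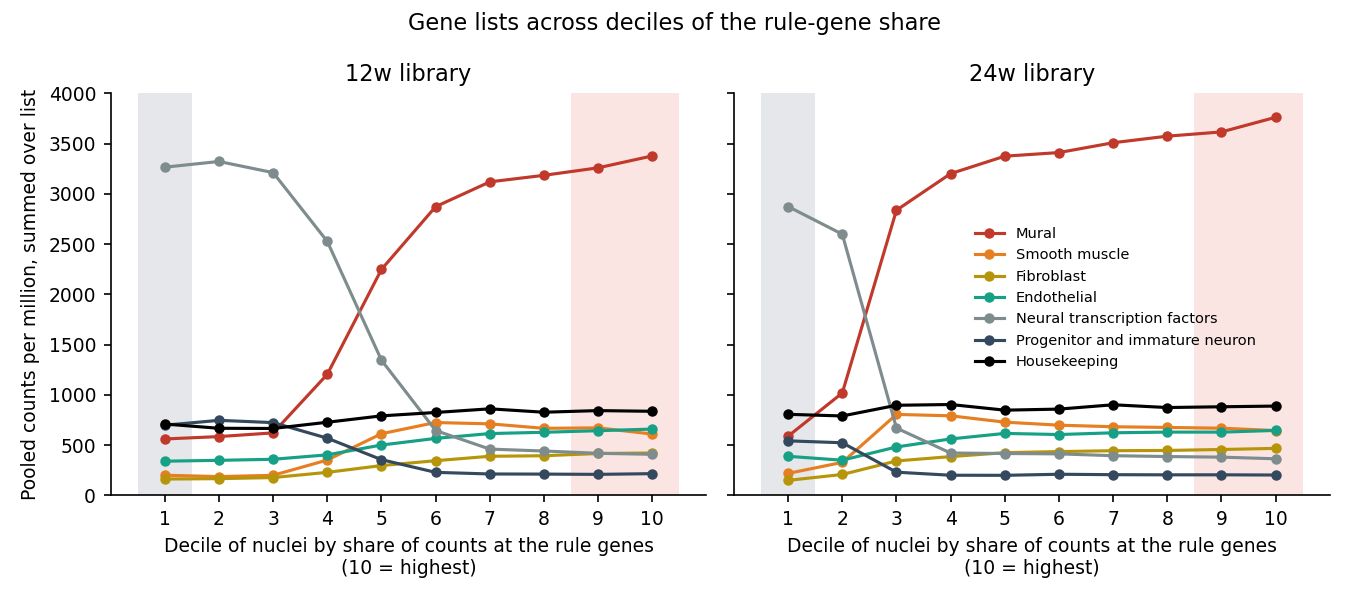
Summed pooled CPM of 7 gene lists (vertical axis) across deciles of nuclei ordered by the share of counts at the 4 rule genes (horizontal axis, 10 is highest), for the 12w and the 24w library, with the mural-low decile shaded grey and the mural-high deciles shaded red. The mural line goes from 561 to 3379 CPM at 12w and from 589 to 3763 at 24w and is steep between deciles 3 and 6 at 12w and between deciles 2 and 3 at 24w.

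In single nuclei, the share of counts at the 14 markers had a median of 0.330% at 12w and 0.367% at 24w in mural-high nuclei, and of 0.0523% and 0.0550% in mural-low nuclei. The nuclei between the groups had medians of 0.210% and 0.326%. At 12w 99.95% of mural-high nuclei and at 24w 100% lay above the median of the mural-low nuclei. Mural-high nuclei were also set against all other nuclei of the library in place of the bottom 10%. The median log2 difference of the mural markers was then 0.51. Of 119850 regions compared, 900 (0.751%) were higher and 42272 (35.3%) lower, in place of 28056 (28.0%) and 40634 (40.6%) of 100146. The higher values given here are thus between the 2 ends of the range, while the share of lower regions changed less.

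Smooth muscle genes were divided. Of 8 compared, 3 were higher and 0 lower, beside 8.43% higher and 21.3% lower of all genes. The median log2 difference was 1.01 at 12w and 0.76 at 24w. Myh11, the smooth muscle myosin heavy chain, had 222 and 251 CPM in mural-high against 24.4 and 20.9 in mural-low nuclei, and Des, which encodes desmin, had 54.7 and 61.7 against 8.88 and 7.73. Lmod1, an actin nucleator, was higher by 1.73 and 1.48. Acta2, smooth muscle actin, had 14.5 and 11.3 CPM against 15.3 and 15.6, and Cnn1, calponin, 7.13 and 6.82 against 7.32 and 5.69. The groups did not separate at these last contractile genes. The summed level of the 8 was greatest in decile 6 at 12w, with 725 CPM against 610 in decile 10, and in decile 3 at 24w, with 806 against 645.

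Of markers for other cells of the vessel, 4 of 12 genes of the endothelial list were higher and 3 lower, beside 8.43% higher and 21.3% lower of all genes, so that the lower count is near the share of all genes. Sox17, Pecam1 and Cldn5, a transcription factor, an adhesion molecule and the tight junction claudin of the endothelium, were lower by log2 values of −3.02, −2.80 and −2.19 at 12w and −4.42, −3.22 and −2.25 at 24w. Cldn5 had 2.77 and 3.29 CPM in mural-high against 12.7 and 15.8 in mural-low nuclei. The angiopoietin receptor gene Tek had 83.4 and 93.9 CPM against 10.2 and 18, and the VEGF receptor gene Flt1 331 and 314 against 72.8 and 98.1. Emcn and Slco1a4 were higher as well, while Tie1, at 6.41 and 5.51 CPM against 1.05 and 4.32, passed 2-fold at 12w only. None of the defining endothelial markers was at 0 in mural-high nuclei, and the summed level of the list was 651 and 637 CPM against 340 and 389.

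Of the 8 fibroblast markers 5 were higher and 0 lower, beside 8.43% higher and 21.3% lower of all genes. Their sums were 419 and 461 CPM against 162 and 149. Col1a2, a fibrillar collagen gene that pericytes also express, had 43.9 and 43.4 CPM against 5.29 and 6.91. Lum, which encodes lumican, stayed at 1.47 and 2.91 CPM against 1.63 and 1.73. Fibroblast markers thus moved with the mural markers, and their part in the values of collagen and other matrix genes below was not tested. Microglial markers had sums of 262 and 258 CPM against 263 and 288, and 1 of 5, P2ry12, was higher, with a window that overlaps Med12l. Nes, the gene behind the sort, was 0.74 and 0.52 higher on the log2 scale and passed 2-fold at neither age.

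A group of endothelial-high nuclei had been planned for comparison, namely the top 5% by the share at Cldn5, Cdh5, Tie1 and Flt1 that were not mural-high, 311 at 12w and 171 at 24w. These nuclei had mural marker levels close to those of mural-high nuclei, with a median log2 difference of 0.11 at 12w and 0.23 at 24w over the 14 markers, and a median share at the 4 mural genes of 0.118% and 0.123%. Of the 14 markers, 0 were 2-fold higher in mural-high nuclei at both ages in this planned comparison. That group goes against its name. A stricter group, chosen after seeing the data, took the top 1% by Cldn5, Pecam1 and Sox17, 97 and 45 nuclei. The median log2 difference of the 14 mural markers in mural-high nuclei over this group was 2.34 at 12w and 3.21 at 24w, and that of Higd1b 4.03 and 4.26. Among 9 endothelial genes that did not choose the group, Tie1 differed by −1.48 and −3.34, Slco1a4 by −0.29 and −1.64, Flt1 by 0.85 and −0.46 and Tek by 0.60 and −0.68. The median of the 9 was −0.29 and −1.19. The stricter group also held neural accessibility, with medians of mural-high over it of −2.31 and −1.06 for the astrocyte and NSC list and −2.70 and −1.29 for the progenitor and immature neuron list, so it is not read as endothelial cells alone.

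Transcription factor genes of vascular development were higher as a group. Of 18 compared, 13 were higher and 1 lower, beside 8.43% higher and 21.3% lower of all genes. The median log2 difference was 2.05 at 12w and 1.89 at 24w. Foxs1, a forkhead factor of pericytes, had 256 and 288 CPM in mural-high against 14.5 and 14.2 in mural-low nuclei. Heyl, a target of Notch signalling, had 297 and 301 CPM against 39.6 and 48.0, and Foxc1, a forkhead factor needed for brain vessels, 394 and 410 against 66.0 and 74.7. The T-box genes Tbx2, Tbx3, Tbx15 and Tbx18 were higher by 1.65 to 2.69 and Ebf1 by 2.04 and 1.97. Meox2, a homeobox gene of brain endothelium, was lower, at 1.75 and 1.07 CPM against 10.0 and 8.90, and Ebf2 differed by −0.34 and −0.39.

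Of the neural transcription factor genes, 16 of 17 were lower and 1 higher, beside 21.3% lower and 8.43% higher of all genes. The medians were −4.01 and −4.12. Emx1, a homeobox factor of the developing cortex and hippocampus, had 4.8 and 1.8 CPM in mural-high against 115 and 102 in mural-low nuclei, and the POU factor gene Pou3f2 4.94 and 3.94 against 154 and 170. The summed level of the list was 414 and 373 CPM against 3267 and 2873. Bhlhe22, which encodes a neuronal bHLH repressor, was the exception, with 120 and 127 CPM against 48.5 and 42.2. Of the markers of other neural classes, 10 of 11 for progenitors and immature neurons, 6 of 10 for astrocytes and NSCs, 5 of 5 for interneurons, 4 of 6 for the oligodendrocyte lineage and 2 of 4 for ependymal cells were lower, and 1, again Bhlhe22, was higher at both ages. The ependymal genes differed among themselves, with log2 values of −3.17 and −3.23 for Ccdc153, −2.34 and −1.83 for Foxj1 and −0.92 and −1.04 for Rsph1, but 0.57 and 2.09 for Tmem212. The immature neuron gene Dcx had 0.652 and 0.115 CPM against 34.1 and 18.8. By these genes the mural-low group carried neural accessibility, and the values given here compare mural-high nuclei with such a group. At 24w the mural-low group also reached high shares at the endothelial list, with a 95th percentile of 0.167% against 0.110% in mural-high nuclei. The medians there were 0.0298% and 0.0619%. At 12w the 95th percentiles were 0.0691% and 0.124%.

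Genes that set vessel tone were among the most uniform, with 14 of 17 higher and 1 lower, beside 8.43% and 21.3% of all genes. Ednra, the endothelin receptor that contracts vessels, had 280 and 304 CPM in mural-high against 28.6 and 34.6 in mural-low nuclei. The soluble guanylate cyclase gene Gucy1b1, whose product answers to nitric oxide, had 257 and 294 CPM against 34.9 and 35.4. Pde5a, which degrades the cGMP so made, had 379 and 403 CPM against 64.3 and 65.1, and Cald1, an actin and calmodulin binding protein, 819 and 886 against 111 and 116. Prkg1, the kinase that cGMP activates, was higher by 1.87 and 1.84 and the calcium channel gene Cacna1c by 1.54 and 1.96. The angiotensin receptor gene Agtr1a was lower, at 7.81 and 3.98 CPM against 17.8 and 12.0, and the vasopressin receptor gene Avpr1a differed by −0.32 and −0.01.

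Genes of the basement membrane and matrix were higher in 13 of 19 cases and lower in 1, beside 8.43% and 21.3% of all genes. Aspn, a small leucine-rich proteoglycan gene, had 113 and 115 CPM against 4.58 and 4.63. Nid1, which links laminin to collagen IV, had 250 and 266 CPM against 36.9 and 35.5. Lama4, a laminin chain of vessels, was higher by 2.68 and 2.60, and the collagen IV genes Col4a1, Col4a2, Col4a5 and Col4a6 by 1.05 to 2.02. Fbn1, the microfibril gene, was lower, at 24.0 and 21.6 CPM against 60.7 and 65.9. Against the planned endothelial-high nuclei, 0 genes of the vascular transcription factor, tone and matrix lists were higher or lower. Over the stricter endothelial group the median log2 difference of the matrix genes was 1.36 at 12w and 0.50 at 24w. It was 1.25 and 0.79 for the vascular transcription factor genes and 1.63 and 2.02 for the tone genes. These lists are therefore not read as particular to mural nuclei.

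Of 12 transport genes 6 were higher and 2 lower, beside 8.43% higher and 21.3% lower of all genes. The lower count is thus near the share of all genes. The higher ones included Slc22a8, an organic anion transporter, at 79.3 and 94.2 CPM against 4.03 and 7.68, Slc16a12, a monocarboxylate transporter family member, at 327 and 354 against 20.6 and 23.4, and Slc6a12, a betaine and GABA transporter, at 162 and 172 against 19.9 and 15.3. The lower ones included the glutamate transporter gene Slc1a2, which had 4.61 and 2.87 CPM against 195 and 205.

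Signalling genes were more mixed. In the TGF-beta and BMP list 4 of 18 were higher and 1 lower, beside 8.43% higher and 21.3% lower of all genes. Bmp5 had 174 and 195 CPM against 15.8 and 22.4, the co-receptor gene Eng was higher by 2.17 and 1.97, and Bmp4 and Tgfb1 were higher too, while Bmp6 was lower, at 12.4 and 8.84 CPM against 49.4 and 46.1. In the PDGF, angiopoietin, VEGF and S1P list 2 of 10 were higher and 4 lower, beside 8.43% and 21.3% of all genes. With 10 genes these counts do not set the list apart. Angpt2, a ligand of TEK, had 159 and 137 CPM against 33.0 and 34.3, and the sphingosine phosphate receptor gene S1pr3 211 and 242 against 58.7 and 56.1. The ligand genes Pdgfc, Pdgfd and Vegfc and the receptor gene S1pr1 were lower.

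In the Notch list 0 of 12 genes were higher beside the rule gene Notch3, and 2, the ligand genes Jag2 and Dll1, were lower. Of all genes 8.43% were higher and 21.3% lower, so that with 12 genes the counts do not set the list apart. The Notch target Heyl, higher at both ages, was counted with the vascular transcription factors and not in this list. Jag1, a ligand that vessel cells use, had 346 and 331 CPM against 139 and 167, a log2 difference of 1.31 and 0.98. Of 3 genes for H4K20 methyltransferases and 10 housekeeping genes, 0 were called in either direction. Kmt5a, which encodes SETD8, had 54.5 and 54.9 CPM in mural-high against 96.5 and 93.5 in mural-low nuclei.

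The scale of these values matters for genes near the threshold. CPM are set by the total in peaks, and over all compared regions the median log2 difference was −0.29 at 12w and −0.48 at 24w. Relative to that median, 8 TGF-beta and BMP, 4 Notch, 5 smooth muscle, 15 vascular transcription factor, 15 basement membrane and 15 vascular tone genes were higher, while Agtr1a, S1pr1, Elavl3 and Neurog2 were no longer lower. The mural list stood at 13 of 14 on both scales.

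Over the genome, 126220 regions had a peak in both adult libraries, and 100146 of them lay more than 100 kb from the 4 genes and had at least 40 counts in the 2 groups together at each age. Of these, 28056 (28.0%) were higher in mural-high nuclei and 40634 (40.6%) lower. The interval was clear of 0 at both ages for 27691 of the higher and 40440 of the lower regions. Only 36 regions passed 2-fold in opposite directions at the 2 ages. Across regions, which are not independent, the log2 differences at 12w and 24w had a Pearson r of 0.96, in libraries that share the method and the choice of nuclei. Restricting nuclei to fewer than 30000 counts, chosen after seeing the data, left 16616 higher and 11215 lower regions, and of all calls 59.7% were then higher in place of 40.8%. A minimum of 200 counts in place of 40 gave 14300 and 11927.

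**Figure D3:**
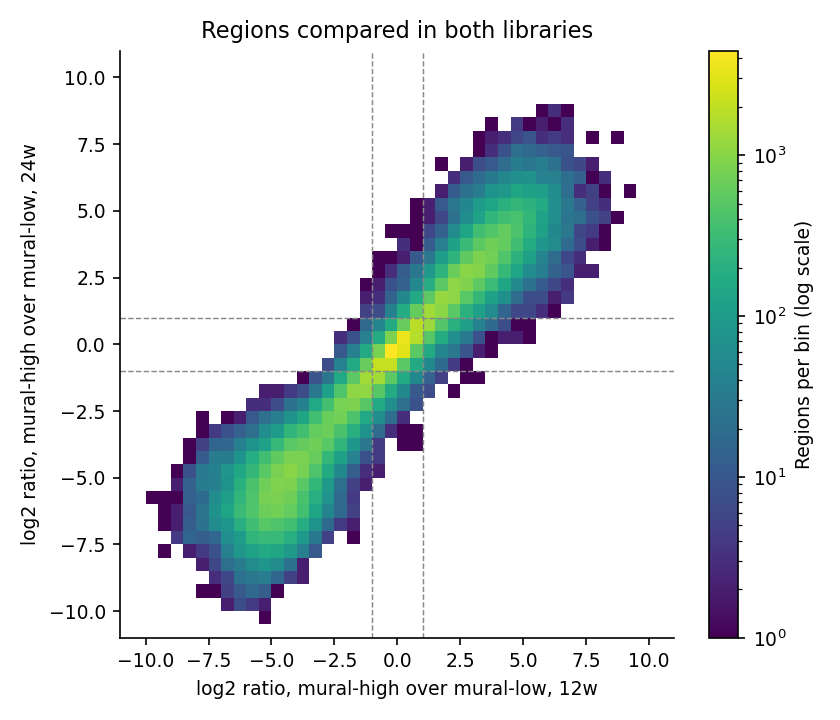
Log2 ratio of mural-high over mural-low nuclei at 12w (horizontal axis) and 24w (vertical axis) for the 100146 compared regions, with colour for the number of regions per bin on a log scale and dashed lines at 2-fold. The regions lie along the diagonal, with 28056 in the upper right corner and 40634 in the lower left.

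Higher regions lay away from start sites. Within 1 kb of the start site of a gene were 10.8% of higher regions (95% Wilson interval 10.4 to 11.2), 14.3% of lower regions and 21.2% of all compared regions. Inside gene bodies were 51.2% of higher, 43.3% of lower and 42.2% of all regions. The median higher region was 1169 bases long, against 1015 for lower and 1151 for all regions.

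The numbers of higher regions per gene were led by Gm20388, with 117 of 468 compared, and Fgfr2, with 60 of 222, whose models in the annotation span 4435 and 2961 kb. These are shares of 25% and 27.0%, below the 28.0% of all regions, and both models held more lower regions, 190 and 93. In the next 8 genes most regions were higher. Cacna1c held 59 higher regions of 88 compared, Dlc1, a GTPase activating protein gene, 53 of 64, Mast4 52 of 78, Ebf1 51 of 61 and Prkg1 51 of 67. Rbms3, Pakap and Ptprk followed with 46 of 70, 45 of 56 and 45 of 57. The region near Palm2 shown above is 1 of those in Pakap. In the smaller gene Atp13a5 all 26 of 26 regions were higher, in Cald1 25 of 26 and in Tbx18, a T-box gene of pericytes, 6 of 6.

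Motifs were sought in the central 300 bases of every compared region, on both strands. The 21 motifs were those of GATA factors (AGATAAG), EBF (CCCNNGGG), FOX (TGTTTAC), TEAD (GGAATGT), AP-1 (TGANTCA), MEF2 and the SRF CArG box by their usual degenerate forms, NFI motif (TTGGCA), NEUROD E-box (CAGATG), TCF E-box (CACCTG), RFX (GTTGCCA), SOX (AACAAAG), ETS (CCGGAAG), nuclear receptor motif (AGGTCA), TBX (AGGTGTGA), RBPJ (GTGGGAA), KLF and SP (CCGCCC), CTCF (CCACNAGGG), POU (ATGCAAAT), homeobox (TAATTA) and MEIS (TGACAG). RFX and NFI matches can overlap, as can MEF2 and homeobox matches in stretches of A and T. By the ratio of shares MEF2 differed most, found in 2.66% of higher, 0.593% of lower and 1.23% of all compared regions. By deciles of the log2 difference, from lowest to highest, its share stayed between 0.52% and 0.67% over the lowest 6 and then went to 0.96%, 1.91%, 2.46% and 3.42%.

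**Figure D4:**
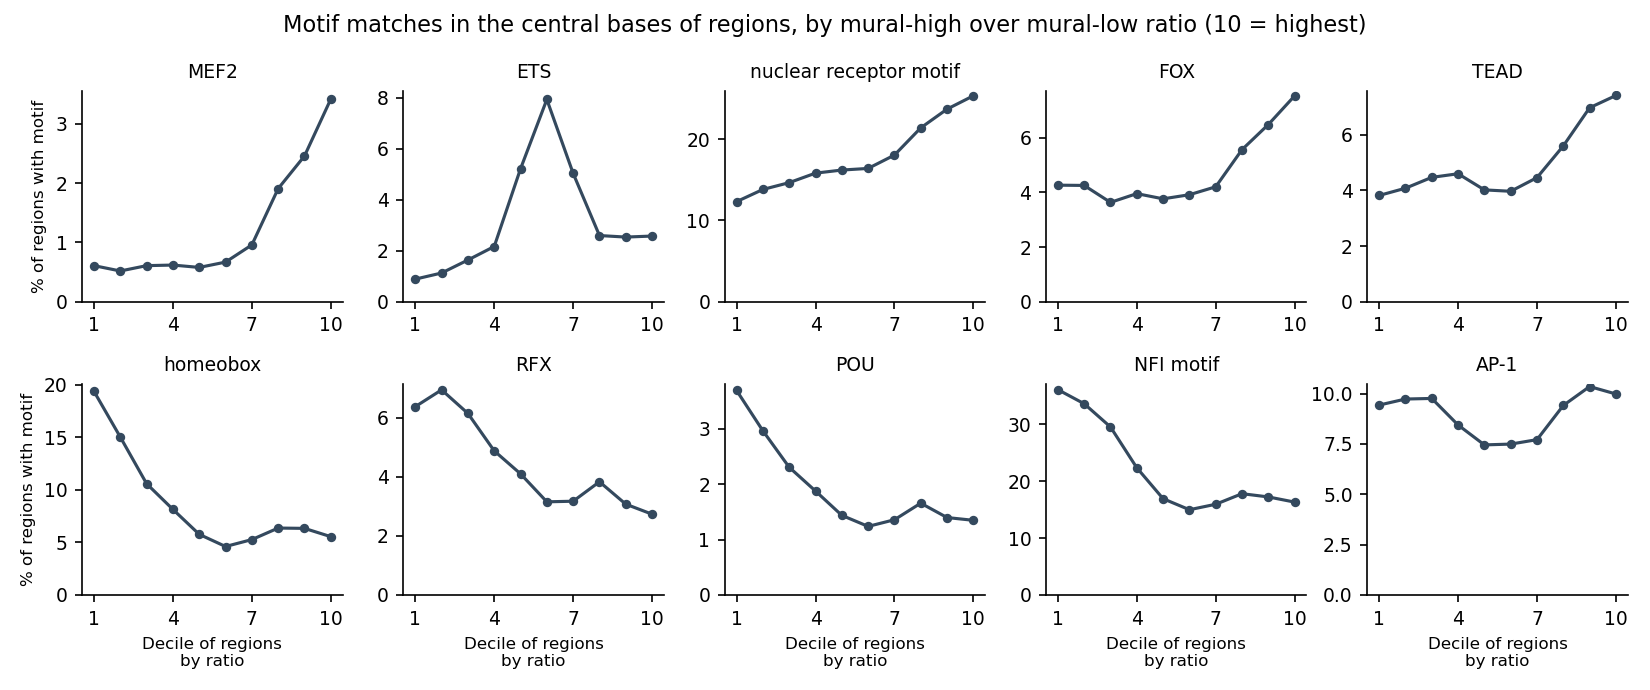
Share of regions, in percent, whose central bases hold each of 10 motifs (vertical axes, each with its own scale from 0) by decile of regions ordered by the log2 ratio of mural-high over mural-low nuclei (horizontal axes, 10 is highest). MEF2 goes from 0.61% in the lowest to 3.42% in the highest decile and homeobox from 19.4% to 5.55%, while ETS is highest in decile 6, at 7.93%.

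The nuclear receptor motif, which 5 of the 10 highest regions hold, was in 23.7% of higher, 14.2% of lower and 17.8% of all regions. FOX was in 6.57%, 4.03% and 4.76%, TEAD in 6.72%, 4.25% and 4.93%, and EBF in 12.9%, 9.84% and 12.1%. ETS was 1.73 times as frequent in higher as in lower regions but less frequent in higher than in all regions, 2.57% against 3.17%. In the other direction, the homeobox motif was in 5.995% of higher, 13.2% of lower and 8.71% of all regions, and the NFI motif in 17.2%, 30.2% and 22.1%. AP-1 differed little, with 9.99%, 9.35% and 8.97%, and so did MEIS and SOX.

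Higher regions were poorer in G and C, with a mean of 46.4% against 49.4% in lower and 49.6% in all regions. Among regions with 30 to 40%, 40 to 50% and 50 to 60% GC the ratio of MEF2 shares in higher over lower regions was 2.96, 4.00 and 4.55. For EBF it was 1.82, 1.82 and 1.58, and for the homeobox motif 0.39, 0.36 and 0.33. EBF, FOX, TEAD, MEF2, ETS and the nuclear receptor motif were at least 1.3 times as frequent in higher regions in each of these 3 ranges, and the NFI, POU and homeobox motifs passed 1.3 times in the other direction in each. The other 5 marked motifs did not pass in every range. For GATA the ratio was 1.27, 1.34 and 1.17, and for RFX 0.78, 0.52 and 0.50. The CTCF motif was in 0.610% of higher and 0.607% of lower regions with 30 to 40% GC, and its ratio was 0.70 and 0.69 in the other ranges. The TCF E-box, at 0.89, 0.86 and 0.88, passed in none, and the KLF and SP motif, at 0.74, 0.99 and 1.02, was about as frequent in higher as in lower regions from 40 to 60% GC.

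The same 4 genes were used to choose cells in the adult scRNA-seq libraries, which hold other cells of the same sort. The top 20% of cells by the share of UMIs (unique molecular identifiers, 1 per captured RNA molecule) from the 4 genes, 1070 of 5351 at 12w and 559 of 2797 at 24w, was set against the cells with 0 such UMIs, 1276 and 235. The cells with most had fewer UMIs, with medians of 1806 and 1961 against 3440 and 2492. Of 9234 genes compared, 10.3% were higher and 14.5% lower by 2-fold at both ages. Against all other cells, a group that also holds cells with some UMIs of the 4 genes, 0.942% were higher and 10.3% lower. All 14 mural markers were higher in RNA than in the cells with 0 UMIs, and 3 of them, Art3 and Vtn included, were 2-fold higher than in all other cells at both ages. The 14 included Ndufa4l2, higher by a log2 of 4.83 at 12w and 3.84 at 24w against the cells with 0 UMIs and 1.71 and 0.87 against all other cells, where the chromatin difference was 0.35 and 0.53. Free RNA was not subtracted.

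Against the cells with 0 UMIs, chromatin and RNA moved alike for most genes of the lists. Of list genes higher in chromatin and compared in RNA, 62 were higher in RNA, 1 lower and 8 neither. All 37 that were lower in chromatin were lower in RNA. Of those called in neither direction in chromatin, 9 were higher, 13 lower and 35 neither in RNA. Across the 165 genes, which are not independent, Pearson's r of the 2 log2 differences was 0.87 at 12w and 0.84 at 24w, and Spearman's rank correlation 0.88 and 0.87. By list, 14 of 14 vascular transcription factor genes, 13 of 15 basement membrane genes and 10 of 12 tone genes were higher in RNA. Most of the higher calls were lost against all other cells, where these counts were 1 (Hic1), 1 (Col4a1) and 0, and where of the list genes higher in chromatin 7 were higher in RNA, 3 lower and 61 neither. The 37 genes lower in chromatin were lower in RNA in that comparison too.

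**Figure D5:**
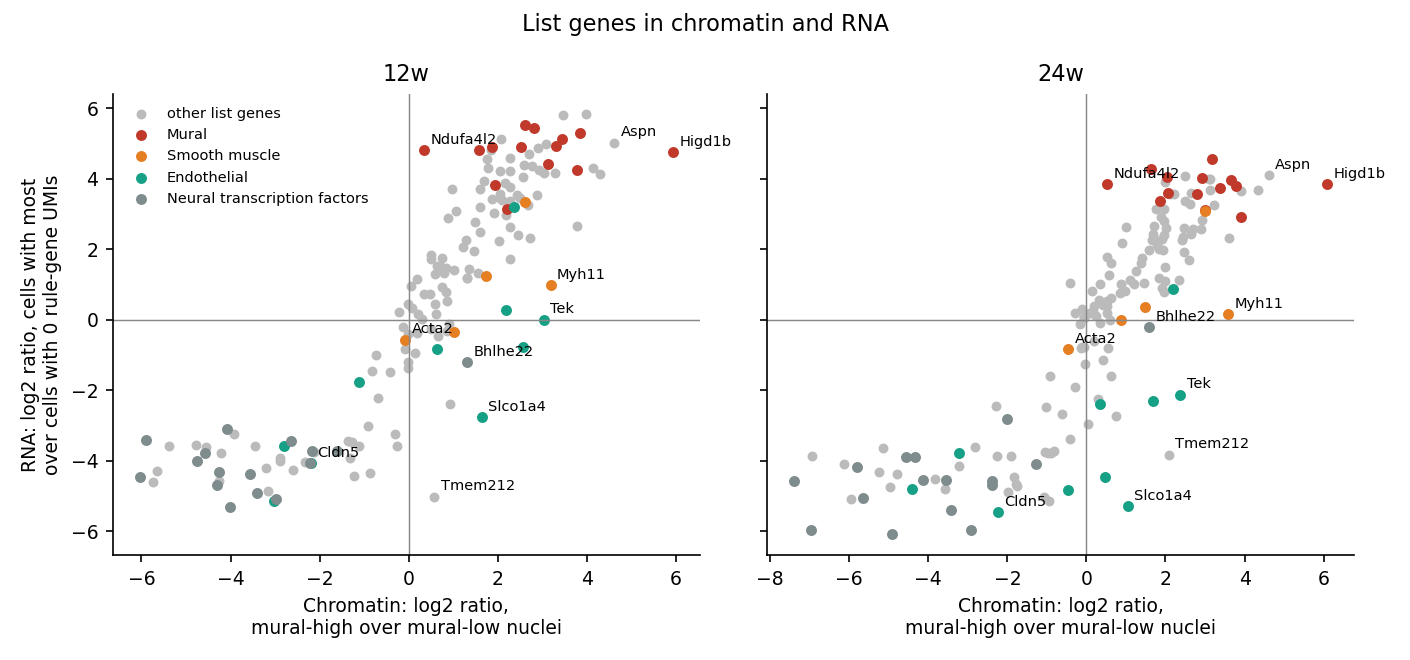
Log2 ratio in RNA, cells with most over cells with 0 UMIs of the rule genes (vertical axis), against log2 ratio in chromatin, mural-high over mural-low nuclei (horizontal axis), for the 165 list genes compared in both, 1 panel per age and 1 point per gene, coloured by list. Most points lie near a rising line, with Slco1a4, Tek, Myh11 and Bhlhe22 to the right of 0 and well below it, and Ndufa4l2 above it.

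Several genes were higher in chromatin without a matching RNA difference. The comparison groups are unlike, the bottom 10% of nuclei in chromatin and the cells with 0 UMIs in RNA. The endothelial list as a whole had medians of 0.36 and 0.38 in chromatin and −1.29 and −4.12 in RNA. The part of the comparison groups in these differences was not tested. Myh11 differed by 3.18 and 3.58 in chromatin but by 0.99 and 0.17 in RNA, with 24.2 and 23.6 CPM of UMIs against 12.2 and 20.3. Tek differed by 3.03 and 2.38 in chromatin and by 0.01 and −2.12 in RNA, and Flt1 by 2.18 and 1.68 against 0.27 and −2.31. Slco1a4, higher in chromatin by 1.64 and 1.04, had an RNA difference of −2.76 and −5.29, the only listed gene called in opposite directions against the cells with 0 UMIs. For Bhlhe22 the chromatin difference was 1.31 and 1.59 and the RNA difference −1.20 and −0.22. In RNA the endothelial list had 0 of 10 genes higher and 5 lower. The 5 genes of the smooth muscle list that were compared in RNA had 1 higher, Des, and Acta2 differed by −0.56 and −0.84. With all other cells as the comparison in place of those with 0 UMIs, the RNA difference was −1.54 and −1.91 for Myh11, −3.02 and −3.23 for Acta2, and 0.43 and 0.16 for Des, so that Myh11 changed sign and Des was no longer 2-fold higher. In that comparison 0 of the 5 smooth muscle genes were higher and 4 were lower.

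Between the ages, the mural-high nuclei were compared as 1 library against 1, and age and library cannot be told apart. Each library was counted over its own peaks, 161584 at 12w and 134612 at 24w. The values of a gene or region at the 2 ages therefore need not cover the same bases. The part of peak calling in the differences below was not tested. Of 82017 regions, 1.34% (1100) were at least 2-fold higher at 24w and 6.14% (5037) lower. Over the 58784 regions that could be compared in both groups, the SD of the log2 of 24w over 12w was 0.52 in mural-high and 0.56 in mural-low nuclei. Of all genes, 0.322% were 2-fold higher at 24w and 4.59% lower. Of 213 list genes, 1 was 2-fold higher, Aldoc, an astrocyte enzyme gene whose window overlaps Pigs and Spag5, from 4.87 to 26.8 CPM. The 6 that were 2-fold lower included the neural genes Dcx, Sox11, Emx1 and Sox2 and the astrocyte water channel gene Aqp4. These genes had few counts in mural-high nuclei, with Dcx going from 0.652 to 0.115 CPM and Aqp4 from 2.96 to 1.23. The log2 interval of Sox11 was −2.71 to −1.22. The intervals of the others named reached within 2-fold, with upper ends of −0.15 for Dcx, −0.46 for Aqp4, −0.76 for Emx1 and −0.83 for Sox2. The genes of the mural list stayed within 2-fold, with log2 values of 24w over 12w from 0.02 for Art3 to 0.38 for Atp13a5, and Col4a1 of the basement membrane list stood at 0.42. At P5 the same choice gave 1357 nuclei with a median share of 0.0356%, against 0.0137% in all P5 nuclei. The median log2 difference there was 0.48 for the mural, 0.54 for the smooth muscle and 0.52 for the fibroblast markers. For the astrocyte and NSC list it was 0.35, and for the progenitor and immature neuron list −0.59. The P5 choice thus did not set the mural markers apart from these other lists that rose.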

How the data were processed

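Chromatin was measured by scATAC-seq and RNA by scRNA-seq in Nestin-EGFP+ cells of the DG, with 1 library per age and assay. The deposited scATAC-seq matrices hold unnormalized counts of transposase insertions for each peak in each barcode. The authors aligned these reads to mm10 and ran Cell Ranger ATAC, which called peaks in each library on its own. The deposited scRNA-seq matrices hold unnormalized counts of UMIs for each gene in each barcode, from the Cell Ranger 2.2.0 run of the authors on mm10. The adult chromatin libraries list 502675 and 401189 barcodes and 161584 and 134612 peaks, and each sequenced fragment can give 2 counts.

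Peaks of 12w and 24w that overlapped were merged into regions. Counts were pooled over nuclei, 1 count was added, and ratios were given exact conditional binomial 95% intervals, with counts divided by 2 for the fragments. These intervals, and floors of 3 counts, cover counting error only. Genes were placed with the GENCODE vM21 annotation (GRCm38) and sequences read from the RefSeq GRCm38 assembly. Cells had at least 1000 UMIs, 500 genes and at most 10% mitochondrial UMIs. No count model was fitted, since a group holds 1 library per age. Python 3.11.15, numpy 2.4.6, scipy 1.17.1, pandas 2.3.3 and matplotlib 3.10.9 were used.

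Genes named belong to the lists, by the largest smaller-of-the-ages ratio and the other extreme, or hold most higher regions. Regions named are the 10 highest and 10 lowest with at least 200 counts in the 2 groups together at each age, which a region could pass through 1 group alone. The members and lists were chosen with earlier results of these data known. Other cell types and the bulk data were not used here, and a few list genes and regions are not reported here. The alternatives changed the members, the comparison group, depth, barcode filter, rule genes, scaling, counting, filters and motif window.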

Additional observations from a re-analysis of the deposited data

Results flagged for a closer look

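In 2 of the list genes the chromatin difference between mural-high and mural-low nuclei had opposite signs at the 2 ages, each with a counting interval clear of 0, and both were small. Tgfb2, a TGF-beta ligand gene, had 149 CPM in mural-high and 135 in mural-low nuclei at 12w, a log2 difference of 0.14, and 124 and 136 CPM at 24w, a log2 difference of −0.14. Ppia, the cyclophilin A gene of the housekeeping list, had 59.9 and 52.7 CPM at 12w, a difference of 0.19, and 51.5 and 58.0 CPM at 24w, a difference of −0.17. The difference between ages was not tested, as there is 1 library per age. Relative to the median of all compared regions, −0.29 at 12w and −0.48 at 24w, both genes were on the higher side at both ages.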

How the results depend on the processing

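Mural-high and mural-low nuclei were compared within each library. No paired analysis was possible between the ages because each age has 1 library and the labels carry no replicate numbers. Of 94 values under 19 alternative settings, 55 stayed within their error or 1.5 times the count, 39 moved and 0 reversed in sign. The error of a list median was set by the gap between the ages, so it is small where the ages are close. For the Endothelial list, at 0.36 and 0.38, a shift from 0.21 to 0.23 counted as moved. Counts and shares cannot change sign. The excess of lower over higher regions did turn. Higher regions were 40.8% of all calls as reported, 59.7% under 30000 counts per nucleus and 54.5% with at least 200 counts. Leaving out Kcnj8 and Abcc9 together, a limit of 30000 counts per nucleus and the stricter endothelial group were chosen after seeing the data. The cause of the changes was not tested. Depth limits the regions with few counts, where the interval of a ratio is wide.

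With all other nuclei as the comparison group, 119850 regions were compared in place of 100146. Higher regions numbered 900 (0.751%) in place of 28056 (28.0%) and lower regions 42272 (35.3%) in place of 40634 (40.6%). The share of higher regions near start sites was 6.67% in place of 10.8%. By the smaller of the ages, the Mural median was 0.51 (2.71 in the report's comparison). That of Smooth muscle was 0.017 (0.76) and that of Endothelial 0.048 (0.21). In RNA, all other cells as the comparison gave a Pearson r of 0.841 at 12w and 0.800 at 24w, and 3 of 14 mural markers and 87 of 9234 genes higher in place of 14 and 948. With the bottom 20%, the Mural, Smooth muscle and Endothelial medians were 2.44, 0.45 and 0.34 and the start site share 10.3%. With median scaling they were 3.18, 1.23 and 0.68 and the share 12.7%. With a limit of 30000 counts they were 2.47, 0.50 and 0.11 and the share 13.1%. Of 50036 regions compared under that limit, 16616 (33.2%) were higher and 11215 (22.4%) lower. With nuclei counted by any count, the Mural and Endothelial medians were 2.21 and 0.29, the share 11.5% and the lower regions 25303 of 74297 compared (34.1%). With at least 200 counts there were 14300 higher and 11927 lower regions, a share of 15.3% and an Endothelial median of 0.34. The share was 12.1% with the top 10% and 9.44% at 3-fold. The Endothelial median was 0.39 with the top 10%, 0.35 with thinned counts, 0.23, 0.39 and 0.24 without Abcc9, Pdgfrb and Notch3 in turn, and 0.20 without Kcnj8 and Abcc9, where the Smooth muscle median was 1.04. With the central 500 bases 6 of the 7 motifs more frequent in higher regions remained, without EBF (1.18 times), and the TCF E-box ratio was 0.806. Against the stricter endothelial group 12 mural markers were higher, in place of 0 against the planned one.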

Other observations

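Outside the lists, the 10 genes with the highest ratios in mural-high over mural-low nuclei, chosen after their values were seen, were Ccl3, Cd200r2, Gm45261, Cysltr2, Gm9817, Ifitm1, Tktl1, Gbgt1, Ifi204 and Ifi211. Cysltr2, a receptor for cysteinyl leukotrienes, had 102 CPM at 12w and 109 at 24w in mural-high against 3.15 and 2.59 in mural-low nuclei, a log2 difference of 5.01 and 5.36. Ccl3, a chemokine gene, had 24.7 and 25.3 CPM against 0.610 and 0.203. Of the 10, the interferon-induced genes Ifitm1, Ifi204 and Ifi211 had 41.8, 15.2 and 15.8 CPM at 12w against 1.39, 0.475 and 0.678. At the other end were Cldn2, a claudin gene, and Gpm6a, which encodes a neuronal membrane glycoprotein. Gpm6a had 1.002 and 0.498 CPM in mural-high against 73.4 and 61.0 in mural-low nuclei.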
